A study of Homo sapiens with 2 samples.

Results

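A set of 6 protein-coding genes with very long coding sequences, PRKDC, DYNC1H1, LRP1, UBR4, HERC1 and BIRC6, was examined for contact with ADAR1. A cluster, a stretch of genome where reads of RNA crosslinked to ADAR1 pile up, was assigned to a gene when its midpoint lay in the gene's interval on hg19 and on the gene's strand. This gave 48 of the 23782 clusters of the series, 25 of them classed as Alu and 23 as non-Alu by the authors. The question was whether non-Alu clusters crowd together in these genes as they do in genes with giant exons.

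The clusters come from CLIP-seq of U87MG, an established human glioblastoma (astrocytoma) line. Cells without any labelled treatment other than the ultraviolet crosslink were used at passage 6, and ADAR1 was immunoprecipitated for 2 libraries, labelled AB1 and AB2, with monoclonal antibodies raised in mouse. Both libraries carry the same catalogue number although the study speaks of different antibodies, and the list of clusters is shared by the series without a column for either. There are therefore no replicates, no read numbers per cluster and no test between conditions, and sampling depth is unknown. Intervals in the text are Wilson 95% intervals, which cover counting error only and treat clusters of 1 transcript as independent, which they are not.

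ADAR1 turns adenosine into inosine in double-stranded RNA. In human cells most such RNA forms where Alu elements, short primate-specific retrotransposons common in introns, sit in opposite directions within a transcript and fold back on each other. A non-Alu cluster lies, by the authors' label, outside these elements. The 6 proteins are large and serve basic cell functions: endocytosis (LRP1), transport along microtubules (DYNC1H1), DNA double-strand break repair (PRKDC), and ubiquitin transfer (BIRC6, HERC1 and UBR4). In GENCODE release 29 their longest coding sequences ranged from 12384 bases for PRKDC to 15549 bases for UBR4, split over 74 to 106 exons. The part of the label that calls the genes housekeeping could not be checked, because RNA levels were not measured here.

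The 6 genes differed widely in both the number and the class of their clusters. LRP1 had 14 clusters, PRKDC 11, BIRC6 9, DYNC1H1 7, HERC1 7 and UBR4 0. LRP1 held 14 non-Alu clusters and no Alu cluster, while HERC1 held 7 Alu clusters and no non-Alu cluster. Non-Alu clusters made up 5 of 7 in DYNC1H1, 3 of 11 in PRKDC and 1 of 9 in BIRC6. LRP1 and DYNC1H1 thus held 19 of the 23 non-Alu clusters, or 82.6%.

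Over the whole list 15.1% of clusters were non-Alu. The share was 100% in LRP1 (interval 78.5 to 100%) and 71.4% in DYNC1H1 (35.9 to 91.8%), both with intervals above the share of the list. It was 27.3% in PRKDC (9.75 to 56.6%), 11.1% in BIRC6 (1.99 to 43.5%) and 0% in HERC1 (0 to 35.4%), and these intervals include the share of the list. Pooled over the 6 genes it was 47.9% (34.5 to 61.7%), a value that rests on LRP1 and DYNC1H1. Without LRP1 26.5% of 34 clusters were non-Alu (14.6 to 43.1%). In the 4 genes other than LRP1 and DYNC1H1 it was 14.8% of 27 clusters (5.92 to 32.5%), close to the share of the list. None of the 6 intervals held a cluster on the strand opposite to the gene.

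**Figure D1:**
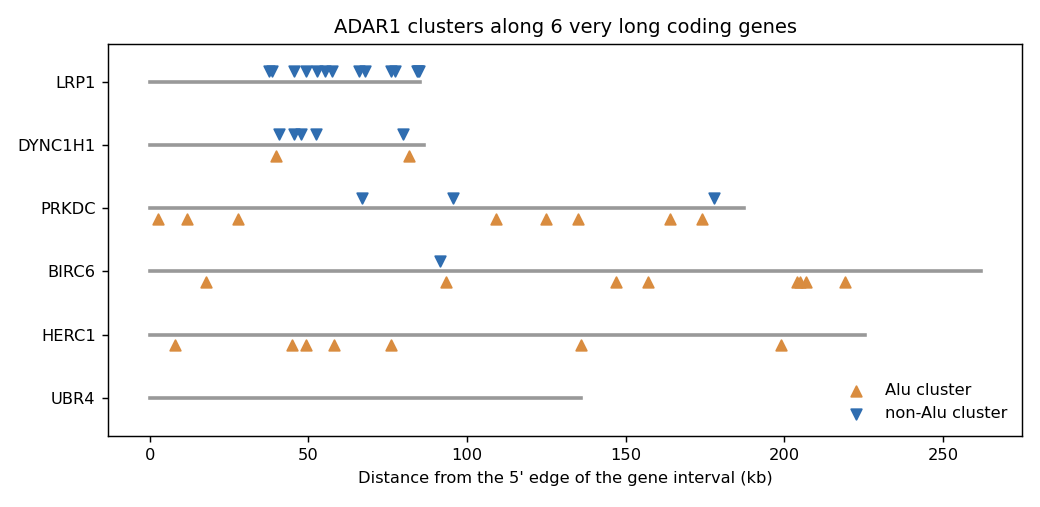
Position of each cluster along the 6 gene intervals, in kb from the 5' edge of the interval, with non-Alu clusters above and Alu clusters below the line that marks the interval. LRP1 carries 14 non-Alu clusters in its 3' part, HERC1 carries 7 Alu clusters, and UBR4 carries none.

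LRP1, a very large endocytic receptor of the LDL receptor family, had the highest density of the 6 genes, 16.5 clusters per 100 kb of gene. For scale, the list was cut into windows of 100 kb on 1 strand. Windows with any cluster held a median of 1. Of these windows 3.91% held 5 or more clusters, and 0.0948% held 10 or more non-Alu clusters. Empty windows were not counted, and the windows do not follow gene borders. The interval of LRP1 runs on the plus strand of chromosome 12 from 57522200 to 57607200. The first 37.6 kb, or 44.3% of the interval, held no cluster. All 14 then followed within 47.2 kb.

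In bases of genome, introns included, the clusters of LRP1 formed a loose chain rather than a dense block. The chain opened with a close pair, from 57559816 to 57560029 and from 57560634 to 57560876, separated by 604 bases. Single clusters came next at 57567598 to 57567810, at 57571222 to 57571419 and at 57574896 to 57575118. Gaps of 3411 and 3476 bases separated these 3. Then came clusters from 57577159 to 57577351 and from 57579371 to 57579597, with 2019 bases between them. Another 8511 bases on, the widest gap of the chain, a cluster ran from 57588109 to 57588328, and the next ran from 57589831 to 57590097. This last one was the longest of the gene, 267 bases. A further pair, from 57598138 to 57598335 and from 57599345 to 57599457, was separated by 1009 bases, just over the distance of 1000 bases used here to call neighbours.

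At the 3' end of LRP1 the spacing was much tighter. Its last 3 clusters ran from 57606282 to 57606527, from 57606594 to 57606677 and from 57606885 to 57606983. The gaps between them were 66 and 207 bases. The 3 clusters spanned 702 bases, covered 61.1% of them, and lay between 918 and 217 bases from the 3' edge of the interval. In GENCODE the last exon of LRP1 has 937 bases and is the longest of its 89 exons. The clusters were not placed in exons, because no hg19 annotation was used here, so the lengths stand side by side only.

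The LRP1 chain was among the longer unbroken series of non-Alu clusters in the list. Such a series was counted as consecutive non-Alu clusters on 1 strand, with no Alu cluster between them and no gap over 100 kb. Gene borders were ignored, so a series of 15 clusters on chromosome 8 joins EPPK1 and PLEC. The list held 16 series with 10 or more clusters, 6 of them, the joined one included, with more than the 14 of LRP1. Their median gaps ranged from 118 to 12527 bases, and LRP1, at 2040 bases, had a narrower median gap than 9 of them and a wider one than 6. The clusters covered 5.80% of the LRP1 chain, within a range over the 16 series from 0.940% to 53.8%. The upper end was the longest series, 29 clusters in AHNAK. Much like LRP1 were a series of 17 clusters from 216248733 and another of 16 from 238232835, on the minus strand of chromosome 2. Their median gaps were 2148 and 2196 bases, and their clusters covered 6.57% and 6.26%.

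DYNC1H1, the heavy chain of the cytoplasmic dynein motor, resembled LRP1 in where its clusters began. Its interval runs on the plus strand of chromosome 14 from 102430800 to 102517200, and the first 39.5 kb, 45.7% of it, held no cluster. The density was 8.10 clusters per 100 kb. An Alu cluster from 102470275 to 102470493 (219 bases, the longest of the gene) came first and was followed after 875 bases by a non-Alu cluster from 102471369 to 102471582. That was the closest pair of the gene.

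Non-Alu clusters of DYNC1H1 were spread over 39.4 kb. The next 3 ran from 102476224 to 102476439, from 102478290 to 102478383 and from 102483173 to 102483289. The middle one of these, at 94 bases, was the shortest of the gene. The last non-Alu cluster, from 102510633 to 102510788, stood 27.3 kb further on. No 2 non-Alu clusters were closer than 1850 bases, so none had a non-Alu neighbour within 1000 bases, while 4 of the 5 had one within 5000 bases. An Alu cluster closed the series, 1467 bases beyond the last non-Alu one.

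PRKDC, the catalytic subunit of the DNA-dependent protein kinase that acts in end joining of broken DNA, had clusters along its whole length. Its interval, transcribed from the minus strand, spans 48685600 to 48872800 on chromosome 8. Between its 11 clusters (5.88 per 100 kb) the median gap was 14.7 kb and the smallest 3326 bases. The 8 Alu clusters were 102 to 247 bases long, with the shortest of them only 2.61 kb from the 5' edge.

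The 3 non-Alu clusters of PRKDC stood far apart. They ran from 48805654 to 48805890, from 48777126 to 48777351 and from 48694955 to 48695185. Their lengths were 237, 226 and 231 bases, each above the median of 192 bases over the list. The gaps between them were 28302 and 81940 bases. The closest pair of the gene joined the third of them to an Alu cluster 3326 bases away.

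BIRC6, a giant inhibitor of apoptosis protein that also conjugates ubiquitin, had 8 Alu clusters and a single non-Alu cluster. Its interval lies on the plus strand of chromosome 2 from 32582000 to 32844000, with 3.44 clusters per 100 kb. The non-Alu cluster, from 32673359 to 32673456, was the shortest of the gene at 98 bases. It lay 1782 bases before an Alu cluster from 32675239 to 32675471, the longest of the gene at 233 bases. No other non-Alu cluster occurred on that strand for 686145 bases.

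Alu clusters came closest together in BIRC6. Clusters from 32786038 to 32786184 and from 32786803 to 32787024 were separated by 618 bases, and a further Alu cluster followed 2021 bases later. This was the only pair of Alu clusters within 1000 bases in the 6 genes. It put 2 of 25 Alu clusters, 8.0%, beside an Alu neighbour, where the list had 4.51%, so a single pair accounts for the whole difference.

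HERC1, a giant ubiquitin ligase of the HECT type, had only Alu clusters, 3.11 per 100 kb. Its interval spans 63900800 to 64126200 on chromosome 15 (minus strand). Of its 7 clusters, 5 lay in the first 33.8% of the gene as read from the 5' edge. The closest pair, 4251 bases apart, ran from 64076795 to 64076979 and from 64081231 to 64081615. The second of these was the longest cluster of all 48, at 385 bases. Only 0.366% of Alu clusters in the list were as long or longer. The shortest cluster of the gene had 137 bases, from 64068120 to 64068256.

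UBR4, a ubiquitin ligase that recognises destabilising N-terminal residues, had no cluster of either class. Its interval spans 19401000 to 19536800 on chromosome 1 (minus strand). The nearest clusters on the same strand were both Alu, 160 kb beyond the 3' edge and 61.0 kb beyond the 5' edge, so 357 kb of that strand held none. Gaps of at least this size made up 15.4% of all gaps between consecutive clusters on a strand. That share counts gaps and not the length they cover, of which such long gaps take a larger part. With no read numbers, a gene without clusters cannot be read as a gene without contact.

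Close non-Alu neighbours were therefore found in LRP1 alone among the 6 genes. A neighbour was counted when another non-Alu cluster on the same strand lay within 1000 bases of genome, edge to edge. Of the 23 non-Alu clusters, 5 had such a neighbour, or 21.7% (interval 9.66 to 41.9%), against 15.2% over the list. The pooled interval includes the share of the list. All 5 were in LRP1 (5 of 14, 35.7%), whose interval of 16.3 to 61.2% begins just above the share of the list. The 3 clusters at the 3' end made up most of these, and without them 2 of 11 LRP1 clusters had a neighbour. Without LRP1 the count was 0 of 9, with an interval of 0 to 29.9% that includes the share of the list. The value depends on the distance: within 5000 bases 18 of the 23 had a non-Alu neighbour, or 78.3%, against 27.8% over the list, namely all 14 in LRP1 and 4 of 5 in DYNC1H1. It also depends on cluster length: with only clusters no shorter than the median of the list, 2 of 16 had a neighbour within 1000 bases, or 12.5%, against 11.8% over the list.

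In genes with giant exons the picture differed. AHNAK, MAP1A, MAP1B, PLEC and EPPK1, all coding for large scaffold or cytoskeletal proteins, held 57 clusters, none of them Alu. Of these, 51 had a non-Alu neighbour, or 89.5% (interval 78.9 to 95.1%), against 15.2% over the list. AHNAK held 29 of the 57, and without it 22 of 28 had a neighbour (78.6%). Both clusters of a close pair count, so the interval is no measure of the difference to the 6 genes. AHNAK gave 29 of 29, MAP1A 12 of 12 and PLEC 10 of 12. These genes were chosen with the crowding in most of them already known, so the difference describes the chosen genes and was not tested.

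Crowding was not seen in every gene with a giant exon. EPPK1 had 3 clusters, the closest 1789 bases apart, and MAP1B had 1. Their fullest 10 kb thus held 3 and 1 clusters, the values also found in DYNC1H1 and BIRC6. The EPPK1 interval had 13301 bases, fewer than the 15975 of its longest exon in GENCODE, so its count may be incomplete. EPPK1 consists of near-identical repeats, and how reads with several possible places were treated is not given in the sources used here.

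**Figure D2:**
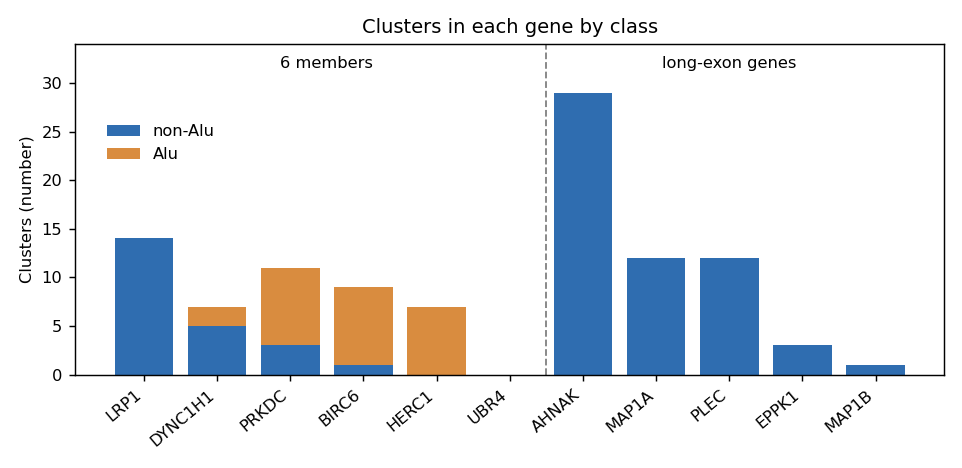
Number of non-Alu and Alu clusters (stacked bars) in the 6 genes and in 5 genes with giant exons. Alu clusters occur in 4 of the 6 genes and in none of the 5 others, and AHNAK has the most clusters, 29.

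The spacing of non-Alu clusters restated the contrast with AHNAK, MAP1A and PLEC from the same positions, so it adds no separate support. Neighbour distances, gaps and 10 kb stretches are all in bases of genome, introns included. In GENCODE the LRP1 transcript of 14897 bases is split over 89 exons that fill 17.6% of the gene's span. PLEC, with 12 non-Alu clusters against 14 in LRP1, has a transcript of 15249 bases with an exon of 7243 bases. Spacing along the RNA was not computed. The median gap between consecutive non-Alu clusters was 118 bases in AHNAK, 362 in MAP1A and 766 in PLEC. It was 2040 bases in LRP1, 4715 in DYNC1H1 and 55121 in PRKDC. The ranges overlap: the smallest gap of LRP1, 66 bases, was below the medians of all 3 crowded genes, and the largest of PLEC, 4335 bases, was above the median of LRP1.

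**Figure D3:**
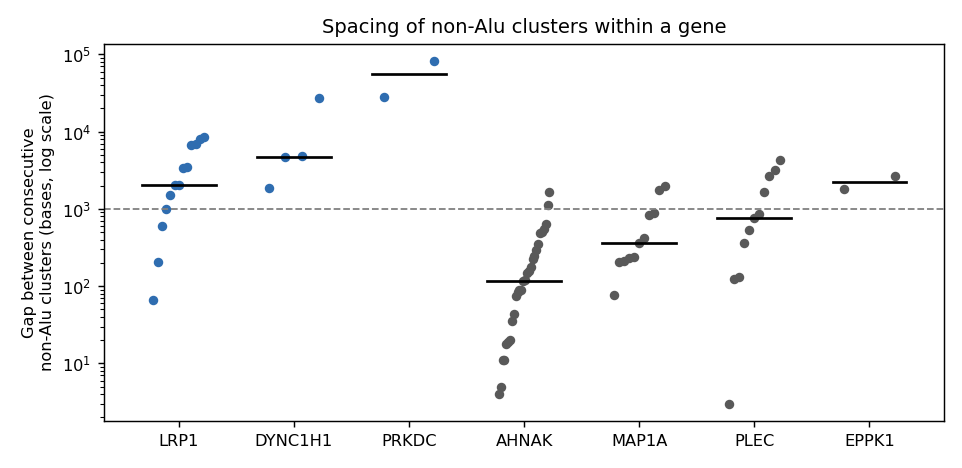
Gaps between consecutive non-Alu clusters in bases of genome on a log scale, 1 point per gap with the median as a bar, for the genes with at least 3 non-Alu clusters. The dashed line marks 1000 bases. Of the gaps in LRP1 3 fall below it, and none in DYNC1H1 or PRKDC.

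Counted over a fixed distance, LRP1 reached 5 non-Alu clusters in its fullest 10 kb and DYNC1H1 3, against 20 in AHNAK, 11 in MAP1A and 9 in PLEC. PRKDC and BIRC6 had at most 1 and HERC1 and UBR4 had 0. The longest coding exon in GENCODE had 249 bases in PRKDC, 344 in UBR4, 378 in LRP1, 930 in HERC1, 1077 in DYNC1H1 and 1395 in BIRC6. In AHNAK it had 17328 bases, and in the other 4 genes with giant exons 6216 to 15264. Among the 6 genes the number in 10 kb did not follow the longest coding exon: LRP1 had the most clusters with the third shortest exon, and BIRC6 had 1 cluster with the longest.

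**Figure D4:**
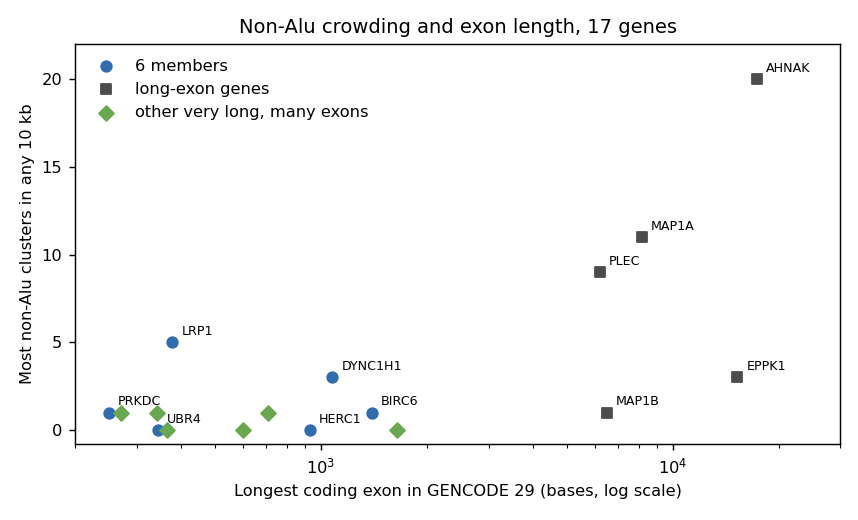
Most non-Alu clusters in any 10 kb of a gene against the length of its longest coding exon (log scale) for 17 genes, 1 point per gene. AHNAK, MAP1A and PLEC stand at 9 or more, EPPK1 and MAP1B at 3 and 1, and LRP1, at 5, is the highest of the genes with short exons. The EPPK1 interval is shorter than its longest exon in GENCODE, so its count may be incomplete.

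Other very long genes made of many short exons had non-Alu clusters at about the share of the list. HUWE1, HERC2, TRRAP, MDN1, HTT and MYCBP2 together held 25 clusters. Of these, 4 were non-Alu (16.0%, interval 6.40 to 34.7%), against 15.1% over the list. None of the 4 had a non-Alu neighbour within 1000 bases, where 15.2% over the list did, and 4 clusters are too few to show a difference. The density over these other genes was 2.21 clusters per 100 kb, against 3.33 over PRKDC, UBR4, HERC1 and BIRC6 and 16.5 in LRP1.

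Clusters in the 6 genes lay within the range of lengths of the list, with a higher median. They ranged from 84 to 385 bases, with a median of 209.5 bases against 192 over the list. Of the 48, 31 (64.6%) were at or above the median of the list, against 51.0% over the list. For non-Alu clusters it was 16 of 23 (69.6%), against 49.4% over the list. The median was 214 bases for non-Alu and 206 bases for Alu clusters, against 191 and 193 over the list. The shortest, 84 bases, was the middle one of the 3 at the 3' end of LRP1. The longest cluster in AHNAK had 1509 bases, against 385 in the 6 genes.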

How the data were processed

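ADAR1 CLIP-seq clusters of 2 U87MG libraries (AB1 and AB2) were taken as deposited. Per the submitters' processing notes, cutadapt 1.1 and Novoalign 2.08.22 were used with hg19; how clusters were called, how the Alu class was assigned and how the libraries were joined is not stated by the sources at hand. The deposited list holds positions, strand and class and no counts or other measured values, so depth and precision per cluster are unknown. Starts were read as counted from 0 and are printed counting from 1.

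The intervals of the 6 genes came with the definition of the gene set, and those of the 11 other genes were entered by hand from general knowledge of hg19. They were checked by length against GENCODE 29 (GRCh38), from which only names, lengths and overlaps were used. The 6 intervals had 94.0 to 100% of the GENCODE span, DYNC1H1 the least. Among the other genes the share was 62.9% for EPPK1, 68.2% for MAP1A, 78.3% for TRRAP and 83.6% for HTT, where an outer part of the gene model may be missed. For EPPK1 the interval, 13301 bases, cannot hold an exon as long as its longest in GENCODE, 15975 bases. In GENCODE no protein-coding gene overlapped any of the 6 on its strand. Other entries on the same strand were MIR1228 in LRP1, RF00019 in PRKDC and AL137127.1 in UBR4. In BIRC6 they were MIR558, AL133243.1, AL133243.2, AL133243.3 and AL133243.4. Clusters were not placed against any of them. Exon data are of the protein-coding transcript with the longest coding sequence.

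The genes and lists were chosen with earlier results of these data known. All 6 genes and all their non-Alu clusters are named, with the longest, the shortest and the closest pair of each gene that has clusters. No cluster sequences are shown, as no hg19 sequence was used here. Python 3.11.15, numpy 2.4.6, pandas 2.3.3, scipy 1.17.1 and matplotlib 3.10.9 were used, and the neighbour search was tested on simulated data.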

Additional observations from a re-analysis of the deposited data

How the results depend on the processing

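Counting any overlap, ignoring strand, widening the intervals by 1000 or (chosen after the data were seen) 10000 bases, or merging clusters within 50 bases left all 48 clusters and their classes as they were. A filter for clusters no shorter than the median of the list retained 31, with 48.4% Alu instead of 52.1%, and under it the non-Alu neighbour share fell from 21.7% to 12.5% (11.8% over the list). Leaving out LRP1, also chosen after the data were seen, raised the Alu share to 73.5% and lowered the non-Alu neighbour share from 21.7% to 0%. That share was 8.70% within 200 bases (6.48% over the list) and 78.3% within 5000 bases (27.8% over the list), where all 14 LRP1 and 4 of 5 DYNC1H1 clusters counted. The most non-Alu clusters in LRP1 fell from 5 in 10 kb to 3 in 5 kb. Apart from that LRP1 count, 63 alternative values for single genes were computed, and 6 of them moved by over 1.5 times, each under the length filter. The 6 are the counts of DYNC1H1, HERC1 and BIRC6 and the same counts per 100 kb. Many of the 63 could not move, so the tally is no measure of robustness. Leaving out LRP1 cannot change other genes, and merging within 50 bases cannot act where the smallest gap is 66 bases. No paired analysis was possible because the list does not separate the libraries.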

Other observations

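Among the 5 genes with clusters, LRP1 and DYNC1H1 stood apart from the other 3 in both class and build, a description with no test. LRP1 and DYNC1H1, with 14 and 5 non-Alu clusters, have the shortest intervals, 85.0 and 86.4 kb, and exons fill 17.6% and 21.8% of their GENCODE span. In the other 4 genes, with 3 non-Alu clusters or fewer, exons fill 6.00 to 11.7%. Among PRKDC, HERC1 and BIRC6 the exon share (7.22, 6.72 and 6.00%) and the non-Alu share (27.3, 0 and 11.1%) were not in the same order. The 3 longest genes, PRKDC, HERC1 and BIRC6 (187 to 262 kb), held 23 of the 25 Alu clusters, but longer genes have more room for clusters. Per 100 kb they had 4.27, 3.11 and 3.05 Alu clusters, against 2.3 in DYNC1H1 and none in LRP1. UBR4, with 11.7% exon sequence, held neither class and so has no share. Much of the DYNC1H1 value comes from a last exon of 6009 bases in GENCODE, part of which may lie outside the interval used here.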
